A study of Homo sapiens with 12 samples.

Results

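The enzymes that write and erase DNA methylation were followed as a set of 7 genes: the methyltransferases DNMT1, DNMT3A and DNMT3B, the dioxygenases TET1, TET2 and TET3, and UHRF1, the protein that brings DNMT1 to its substrate. They were chosen by name and function, with no measured value in the rule, although earlier results of these data were known. They make up 7 of the 60617 genes in the deposited tables. The data were RNA-seq counts from 12 libraries in 4 groups of 3. HCT 116p53-/- is a human colon carcinoma line from which p53 has been deleted, and every group carried that deletion. One pair of groups was this parental line and the other pair a line derived from it, which the labels name RPL3 KO and the study names uL3Δ and describes as a subline stably silenced for uL3, the ribosomal protein encoded by RPL3. In each line, 1 group was given vehicle and the other 5 nM actinomycin D (Act D), an inhibitor of rRNA synthesis at low dose, for 24 h. The comparisons asked how the transcripts respond to Act D in each line, and how the lines differ.

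In mammals, methyl groups on the cytosine of CpG pairs are copied onto the new strand after each round of replication by DNMT1, which UHRF1 guides by binding hemimethylated DNA. DNMT3A and DNMT3B place methylation on DNA that has none, and the TET enzymes oxidise 5-methylcytosine, the first step of its active removal. HCT116 cells are a classical model for maintenance methylation, because lines with disrupted DNMT1 and DNMT3B genes were built in them. DNA methylation itself was not measured here, so all values below are transcript levels.

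The libraries held between 10087925 and 21138886 counts. RPL3 did not follow the label of the derived line: its level was 1112 to 1151 CPM (counts scaled to a common library size) in the 6 parental libraries and 1132 to 1337 CPM in the 6 libraries labelled uL3Δ, and with vehicle the fitted difference was a log2 fold change of 0.13 ± 0.08 (SE, adjusted p = 0.155). The direction of every difference between the lines below therefore rests on the labels, and the samples are called the libraries labelled uL3Δ. The lines also differed in markers of the colon epithelium: with vehicle, 4 of the 11 were under 1 CPM in all parental libraries and 7 in all those labelled uL3Δ. CDH1 (E-cadherin) lay at 64.3 to 68.8 CPM in the parental libraries with vehicle and at 0.161 to 0.701 CPM in those labelled uL3Δ. KRT8 stayed abundant, at 1047 to 1183 CPM and 714 to 813 CPM, and KRT18 rose from 576 to 622 CPM to 804 to 899 CPM. Of the 7 epithelial markers tested, 6 were called lower and 1 higher, beside 36.2% and 35.1% of all genes tested. The summed level of 6 fibroblast markers was 7.58 to 9.66 CPM in the first and 68.4 to 84.7 CPM in the second, with COL1A2 and DCN under 1 CPM throughout. COL3A1 (0.181 to 0.413 CPM against 50.4 to 69.5 CPM) and LUM carried that rise, and COL1A1 was lower in the labelled libraries (6.61 to 8.88 CPM against 3.31 to 5.62 CPM). The epithelial sum was 2480.3 to 2682 CPM and 1591 to 1784 CPM, and that of 5 leukocyte markers 7.55 to 11.5 CPM and 20.2 to 28.2 CPM, with 4 of the 5 under 1 CPM in every group. Their part in the results below was not tested, and in bulk RNA fewer cells of a type and less RNA per cell cannot be told apart. The labels call the samples biological replicates without saying whether they were separate cultures, so p-values measure only the spread between these samples.

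With vehicle, the maintenance pair, DNMT3B, TET2 and TET3 were lower in the libraries labelled uL3Δ than in the parental ones, and DNMT3A was higher. Of the 7 genes, all of which passed the filter on low counts, 1 was called higher and 5 lower by edgeR's quasi-likelihood test at an adjusted p under 0.05, and TET1 was not called. The median log2 fold change of the 7 was -0.90, against -0.02 over all 15692 genes tested. The background is high: 71.3% of all genes tested were called in this comparison, 35.1% as higher and 36.2% as lower, and with library sizes alone the split moved from 5501 higher and 5684 lower to 4202 and 6974. A call between the lines is therefore not unusual in itself, and the sizes below carry more than the count. The libraries of the lines did not overlap for 6 of the 7 genes, where 72.5% of all genes tested did not.

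**Figure D1:**
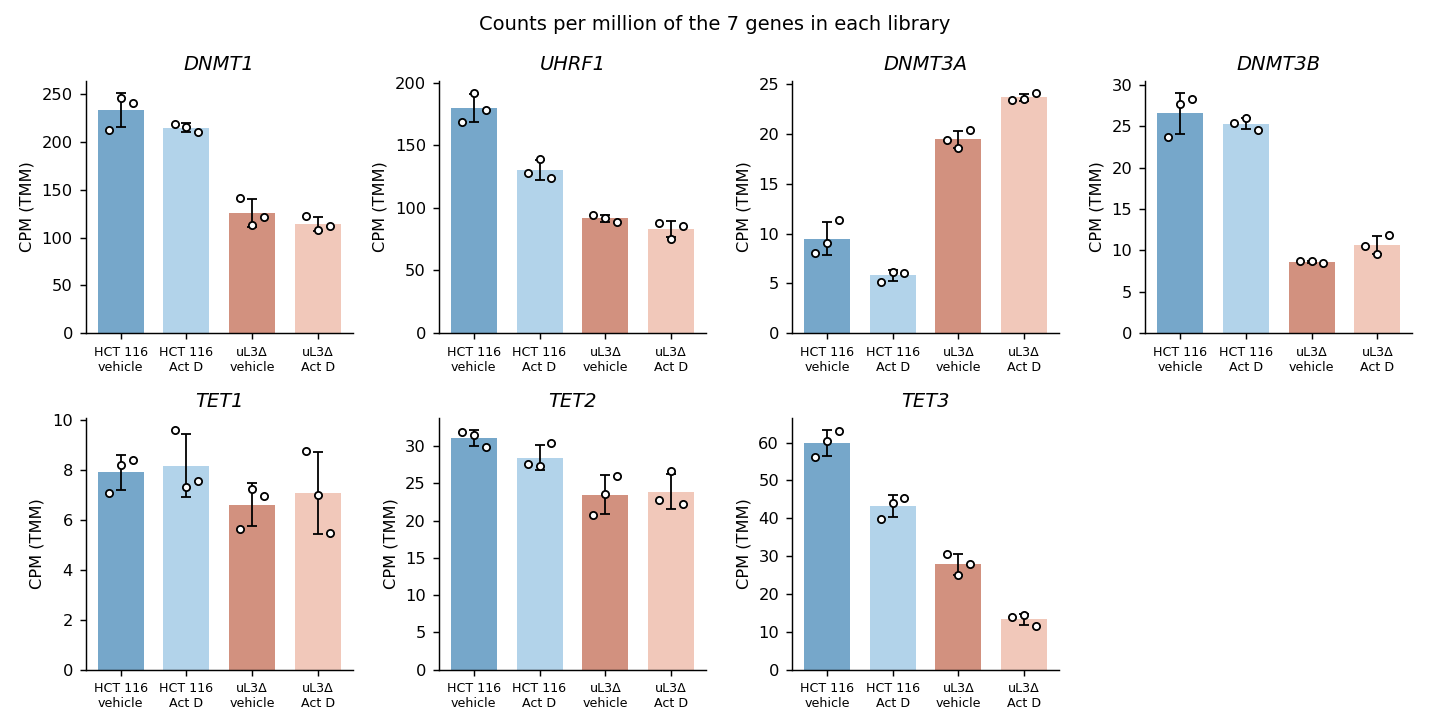
Level of each of the 7 genes in CPM (linear axes from 0) in the 4 groups; bars are means of 3 libraries, error bars the SD and open circles single libraries. DNMT1, UHRF1, DNMT3B and TET3 are lower and DNMT3A is higher in the libraries labelled uL3Δ, TET1 overlaps between the groups of each comparison made, and TET3 is lowest with Act D at 11.6 to 14.5 CPM.

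DNMT1 (hg38, chr19:10133342-10231286, minus strand), the maintenance methyltransferase, was the most abundant of the set per length of transcript. With vehicle it stood at 212.8, 246.3 and 241.1 CPM in the parental libraries and at 141.7, 113.4 and 121.1 CPM in those labelled uL3Δ. The lowest parental library was above the highest labelled uL3Δ by a wide margin. The log2 fold change was -0.90 ± 0.09 (SE, adjusted p = 8.6e-08), or 1.86-fold lower. Treated libraries held 219.5, 215.7 and 210.2 CPM in the parental line and 122.8, 108.2 and 112.5 CPM in the labelled one. The difference between the lines was then -0.91 ± 0.09 on the log2 scale (adjusted p = 9.29e-08). Act D itself moved DNMT1 by -0.12 ± 0.09 in the parental line (adjusted p = 0.412) and by -0.13 ± 0.09 in the labelled line (adjusted p = 0.417), and in both the treated and vehicle libraries overlapped. In the annotation used here DNMT1 overlaps S1PR2, a sphingosine-phosphate receptor gene on the same strand, and the microRNA gene MIR4322.

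UHRF1 (chr19:4903080-4962154, plus strand), which reads hemimethylated CpG and recruits DNMT1, was lower with it in the libraries labelled uL3Δ. In the parental line it also fell under Act D, where DNMT1 was not called, although no test compared the genes. Its vehicle levels were 169.0, 191.8 and 178.6 CPM in the parental libraries and 94.3, 92.0 and 88.9 CPM in those labelled uL3Δ. The groups were far apart, with a log2 fold change of -0.97 ± 0.08 (SE, adjusted p = 8.67e-09). After Act D the parental libraries held 127.6, 138.9 and 124.0 CPM, all below the lowest vehicle library. This was a change of -0.47 ± 0.08 on the log2 scale (adjusted p = 0.000644), the smallest adjusted p among the 7 genes for Act D in that line. In the line labelled uL3Δ the treated libraries held 88.1, 75.5 and 85.9 CPM. They lay just under the vehicle libraries without overlap, and the fitted change of -0.14 ± 0.08 was not called (adjusted p = 0.328). The responses of UHRF1 in the lines differed by 0.33 ± 0.12 (log2, adjusted p = 0.112), which did not pass the threshold. With Act D the difference between the lines was -0.65 ± 0.08 (log2, adjusted p = 2.29e-06). Per kilobase of effective length, the DNMT1 level was 1.52 ± 0.17 times that of UHRF1 in the parental line with vehicle and 2.06 ± 0.42 times with Act D (SD, n = 3), and the ratios in the labelled line, 1.65 ± 0.24 and 1.82 ± 0.37, lay between them with ranges that overlapped both.

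The sequence just upstream of the start of the leading transcript is shown for DNMT1 and UHRF1, which were lower together, and for DNMT3A, which moved the other way. The leading transcript is the one with the most counts in the second parental vehicle library. Which transcript leads in the labelled line was not determined. The sequences come from RefSeq (GRCh38.p14) and are read 5′ to 3′ on the gene's own strand, and capitals mark a match to 1 of 4 spellings of the site for E2F factors, the activators of S-phase genes, searched on both strands: TTTCCCGC, TTTGCCGC, TTTCGCGC and TTTGGCGC. The UHRF1 stretch is chr19:4909351-4909500 on the plus strand, the DNMT1 stretch chr19:10194948-10195103 on the minus strand, which runs 6 bases past the start to take in the whole match, and the DNMT3A stretch chr2:25342591-25342740 on the minus strand.
UHRF1: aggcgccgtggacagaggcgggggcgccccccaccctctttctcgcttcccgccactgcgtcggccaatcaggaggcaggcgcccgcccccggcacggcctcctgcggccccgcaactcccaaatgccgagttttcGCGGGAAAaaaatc
DNMT1: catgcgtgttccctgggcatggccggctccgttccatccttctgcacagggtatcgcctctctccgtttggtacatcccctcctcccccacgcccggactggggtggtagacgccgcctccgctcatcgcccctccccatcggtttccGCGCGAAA
DNMT3A: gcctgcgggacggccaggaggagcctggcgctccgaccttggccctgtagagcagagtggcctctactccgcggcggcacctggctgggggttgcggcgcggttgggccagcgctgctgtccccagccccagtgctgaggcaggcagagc

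All 7 genes had a promoter window in the RefSeq table, which spans 250 bases before to 50 after a start site. A match was present in 1164 of 35116 windows (3.3%), and among the windows at the start of a leading transcript in those of UHRF1 and DNMT1 only. The windows of DNMT3A, TET1, TET2 and TET3 held none, and the single DNMT3B window belonged to an internal start and not to its leading transcript. Those windows held 36 CpG pairs for UHRF1, 30 for DNMT1, 18 for DNMT3A, 10 for TET1, 35 for TET2 and 45 for TET3, against a median of 14 over all windows. A match is a description of letters and shows no binding.

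The de novo enzymes moved in opposite directions between the lines. DNMT3A (chr2:25227855-25342590, minus strand) had 8.04, 9.09 and 11.4 CPM in the parental vehicle libraries and 19.4, 18.6 and 20.4 CPM in those labelled uL3Δ. Every labelled library was above every parental one, with a log2 fold change of 1.03 ± 0.13 (SE, adjusted p = 1.09e-06), or 2.04-fold. With Act D the parental libraries went to 5.17, 6.15 and 6.03 CPM and the labelled ones to 23.4, 23.5 and 24.1 CPM. The gap between the lines widened to 2.04 ± 0.14 on the log2 scale (adjusted p = 3.95e-10), a 4.10-fold difference. In the parental line Act D lowered DNMT3A by a log2 fold change of -0.72 ± 0.14 (adjusted p = 0.00163), with no overlap between the groups. In the labelled line the treated libraries all lay above the vehicle ones, but the change of 0.28 ± 0.12 was not called (adjusted p = 0.153). The test of the difference between these responses passed, at 1.00 ± 0.19 (log2, adjusted p = 0.00393). DNMT3A rests on few reads, 75 to 188 counts in a parental library and 206 to 372 in a labelled one.

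DNMT3B (chr20:32762385-32809359, plus strand) showed the largest fall between the lines with vehicle among the 7 genes. It stood at 23.7, 27.7 and 28.3 CPM in the parental libraries and at 8.68, 8.71 and 8.51 CPM in those labelled uL3Δ. The labelled libraries agree closely and lie far below the parental ones, with a log2 fold change of -1.62 ± 0.11 (SE, adjusted p = 5.03e-10), or 3.07-fold lower. With Act D the parental libraries held 25.4, 26.0 and 24.6 CPM and the labelled ones 10.5, 9.59 and 11.8 CPM. The lines still differed by -1.25 ± 0.12 (log2, adjusted p = 2.72e-08). Act D moved DNMT3B by -0.07 ± 0.10 in the parental line (adjusted p = 0.714) and by 0.30 ± 0.12 in the labelled line (adjusted p = 0.13), neither of which passed. The difference between the responses, 0.37 ± 0.16, did not pass either (adjusted p = 0.195).

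Set on a per-length scale, the order of the de novo enzymes turned over between the lines. In the parental line with vehicle DNMT3B was at 6.69 ± 0.65 CPM per kilobase of effective length and DNMT3A at 1.57 ± 0.30 (SD, n = 3). In the libraries labelled uL3Δ DNMT3B was at 2.26 ± 0.06 and DNMT3A at 4.85 ± 0.61 CPM per kilobase. DNMT3A thus made up 18.9 ± 1.54% of the summed level of both in the parental line with vehicle, and 68.0 ± 3.22% in the labelled one. Under Act D the shares were 15.2 ± 2.64% and 67.6 ± 2.23%. The ranges of the lines were far apart in both conditions, and those of vehicle and Act D overlapped within each line. From the counts alone, without length, the vehicle shares were 26.2% and 69.2% and the Act D shares 18.6% and 69.0%. On that scale the parental ranges, 24.7 to 28.7% with vehicle and 16.9 to 19.7% with Act D, did not overlap. Per kilobase, parental DNMT3A was 1.23 to 1.81 CPM with vehicle and 0.924 to 1.36 CPM with Act D, which overlap, since its effective length was also smaller with Act D (ratio 0.832), so the fall called on the counts was not separated on this scale.

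**Figure D2:**
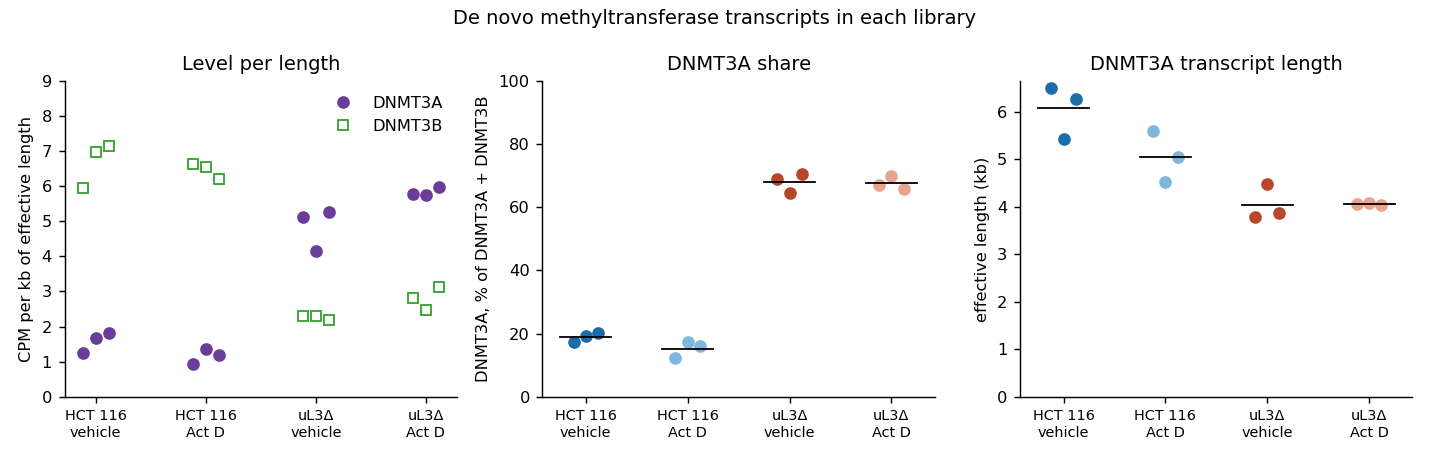
De novo methyltransferases in single libraries: left, level in CPM per kilobase of effective length; middle, DNMT3A as a percent of the sum of both; right, effective length of DNMT3A in kilobases, with group means as lines in the middle and right panels. DNMT3B lies above DNMT3A in all parental libraries and below it in all those labelled uL3Δ, and the mean length of DNMT3A falls from 6072 bases to 4043 bases with vehicle.

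The effective length of DNMT3A differed between the lines as well. This length is the mean length of a gene's transcripts weighted by their estimated abundance, less the fragment length, so it moves when the mix of transcripts moves. It was 6512, 5429 and 6275 bases in the parental vehicle libraries and 3776, 4486 and 3868 bases in those labelled uL3Δ. The groups did not overlap, and the ratio of 0.666 was far from the median of 0.995 over all genes tested, of which 5.96% had a ratio at least as far from 1 on the log scale. After Act D the lengths were 5594, 4512 and 5046 bases in the parental line and 4055, 4083 and 4039 bases in the labelled one, a ratio of 0.804, and 16.3% of genes had one at least as far from 1. The other 6 genes had vehicle ratios from 0.950 to 1.03. Transcript estimates were used for the second parental vehicle library alone, where 96.3 of the 132.3 counts of DNMT3A went to the transcript DNMT3A-201 of 9501 bases and 25.8 to DNMT3A-202 of 4279 bases. In the same library 283.2 of 402 counts of DNMT3B went to DNMT3B-204 and 112.1 to DNMT3B-203, while DNMT3B-202, the longest protein-coding form annotated, was estimated at 0.

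Of the erasers, TET3 (chr2:73984910-74108176, plus strand) was the gene of the set called lower with Act D in both lines. UHRF1 was also lower without overlap in both, but was called in the parental line alone. Its levels were 56.1, 60.5 and 63.0 CPM in the parental vehicle libraries and 39.9, 44.2 and 45.4 CPM after Act D. The treated libraries were all lower, by a log2 fold change of -0.47 ± 0.10 (SE, adjusted p = 0.00277). In the line labelled uL3Δ it was at 30.6, 24.97 and 27.9 CPM with vehicle and at 13.8, 14.5 and 11.6 CPM with Act D. Again no library overlapped, and the change was -1.05 ± 0.12 (log2, adjusted p = 1.52e-05), or 2.08-fold lower. TET3 also differed between the lines, by -1.11 ± 0.10 with vehicle (log2, adjusted p = 2.22e-08) and by -1.69 ± 0.11 with Act D (adjusted p = 3.47e-10). The test of the difference between the Act D responses gave -0.58 ± 0.15 (log2, adjusted p = 0.0294). That call was close to the threshold: the adjusted p rose to 0.0514 to 0.0686 when 1 of 7 libraries was left out, namely parental vehicle replicate 1 or 2, parental Act D replicate 2 or 3, labelled vehicle replicate 1, or labelled Act D replicate 1 or 3, with changes of -0.61 to -0.51.

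TET2 (chr4:105145875-105279816, plus strand) differed less. It stood at 32.0, 31.5 and 30.0 CPM in the parental vehicle libraries and at 20.8, 23.5 and 26.1 CPM in those labelled uL3Δ. The groups did not overlap and the log2 fold change was -0.41 ± 0.11 (SE, adjusted p = 0.0022). With Act D the levels were 27.7, 27.3 and 30.4 CPM in the parental line and 22.8, 26.6 and 22.3 CPM in the labelled one. The difference of -0.25 ± 0.11 narrowly passed (adjusted p = 0.0466). It did not pass, with adjusted p of 0.0538 to 0.138 and differences of -0.29 to -0.22, when any 1 of the parental Act D libraries, or labelled Act D replicate 1 or 3, was left out. Act D moved TET2 by -0.13 ± 0.10 in the parental line (adjusted p = 0.431) and by 0.02 ± 0.11 in the labelled one (adjusted p = 0.929). TET2 overlaps TET2-AS1 on the opposite strand, and the counting used the standard setting of RSEM, which takes no account of strand. Reads in sequence that both genes share therefore cannot be assigned by strand. RSEM's posterior SD for the TET2 count, its own measure of uncertain assignment, was at most 0.24 counts in the libraries deposited per gene.

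TET1 (chr10:68560337-68694487, plus strand) had the lowest mean level per length of the 7 in all 4 groups, and no comparison called it. Its levels were 7.06, 8.20 and 8.39 CPM in the parental vehicle libraries, 9.59, 7.30 and 7.56 CPM after Act D, 5.62, 7.21 and 6.95 CPM in the labelled vehicle libraries and 8.73, 6.97 and 5.45 CPM after Act D. The groups overlapped in each comparison made. With vehicle the lines differed by -0.25 ± 0.18 (log2, adjusted p = 0.218) and with Act D by -0.19 ± 0.18 (adjusted p = 0.366). TET1 rests on 47 to 154 counts a library.

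The makeup of the TET transcripts changed with these values. Per kilobase, TET3 was 57.0 ± 1.90% of the summed TET level in the parental line with vehicle and 43.3 ± 4.57% in the labelled one (SD, n = 3). With Act D it was 48.5 ± 5.42% and 26.6 ± 2.79%. TET2 took the opposite course, from 34.6 ± 2.31% in the parental line with vehicle to 58.4 ± 4.51% in the labelled line with Act D, where it was above TET3 in every library. Its own level did not rise: between those groups TET2 went from 3.43 to 2.85 CPM per kilobase. Over the whole set, the parental order with vehicle was DNMT1 at 73.6, UHRF1 at 48.5, DNMT3B at 6.69, TET3 at 5.65, TET2 at 3.43, DNMT3A at 1.57 and TET1 at 0.834 CPM per kilobase. The neighbours in that order did not overlap, although the lowest DNMT3B library, at 5.95, lay next to the highest TET3 library, at 5.93. In the labelled line with vehicle DNMT3A, at 4.85, moved up to the third place, behind DNMT1 at 41.6 and UHRF1 at 25.2. TET2 at 2.65, TET3 at 2.55 and DNMT3B at 2.26 CPM per kilobase followed, each overlapping its neighbour, and TET1 was last at 0.698.

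The plot of fitted differences sets the comparisons side by side. With Act D 1 of the 7 genes was higher and 5 were lower in the libraries labelled uL3Δ than in the parental ones, where 35.1% of all genes tested were called higher and 35.3% lower (70.4% in all), and 6 genes did not overlap, as did 74.1% of all genes. With library sizes alone, the calls over all genes moved from 5503 higher and 5540 lower to 4244 and 6825. Within the parental line Act D lowered 3 of 7 genes, UHRF1, DNMT3A and TET3, and raised none (3 of 7 against 11.1% of all genes tested called lower and 7.59% called higher, 18.7% in all), with a median of -0.13 (all genes 0.02). There 3 of the 7 did not overlap, against 38.2% of all genes. In the labelled line Act D lowered 1 of 7, TET3, with a median of 0.02 (all genes 0.03), against 11.9% called over all genes, 8.4% as lower and 3.51% as higher. There 4 of the 7 did not overlap, UHRF1, DNMT3A, DNMT3B and TET3, where 27.6% of all genes did not. The responses differed for 2 of 7 genes, DNMT3A upward and TET3 downward, where 6.53% of all genes were called, 3.3% upward and 3.23% downward. The split of all Act D calls depends on the scaling: 1191 higher and 1748 lower in the parental line became 551 and 2309 with library sizes alone, and in the labelled line 551 and 1318 became 227 and 1858 with library sizes alone and 944 and 1012 with upper-quartile factors. The comparisons share vehicle or treated libraries, so their values are not independent of each other.

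**Figure D3:**
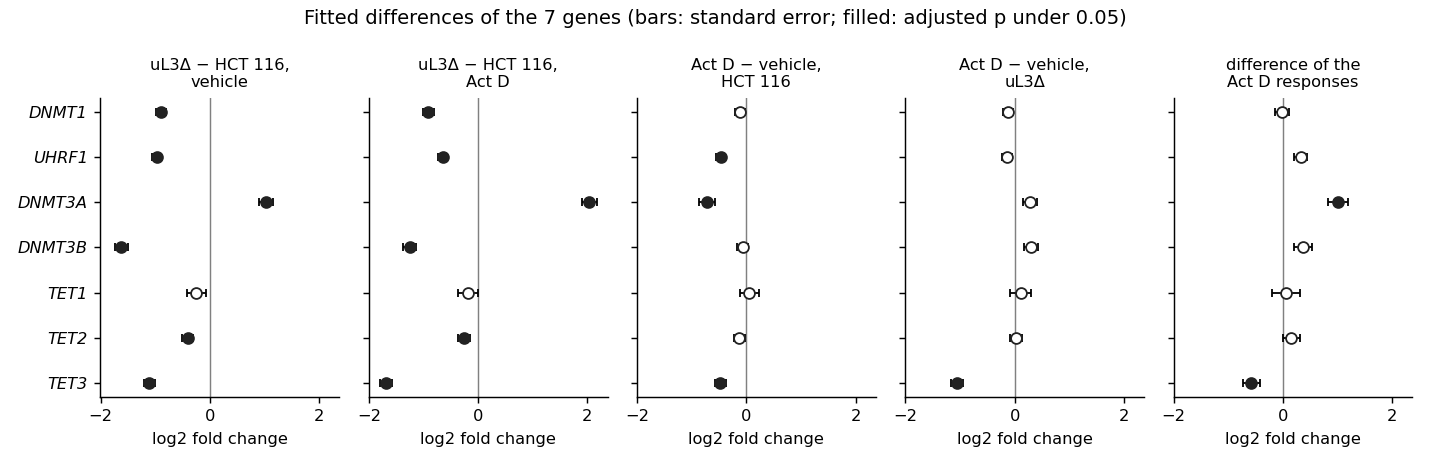
Fitted log2 fold changes (x axis) of the 7 genes in the 5 comparisons, with standard errors as bars; filled circles passed an adjusted p under 0.05 and open circles did not. DNMT3A sits at 1.03 and 2.04 in the comparisons of the lines while DNMT3B sits at -1.62 and -1.25, and TET3 is left of 0 in every panel.

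Genes that work with the maintenance pair were also mostly lower in the libraries labelled uL3Δ with vehicle: 6 of 9 tested were lower and 1 higher (median -0.67, all genes -0.02), beside the background of 36.2% and 35.1%. CDCA7L, a paralog of the HELLS partner CDCA7, had a log2 fold change of -1.91 ± 0.10 (SE, adjusted p = 1.5e-11). EHMT2, a histone H3 lysine 9 methyltransferase, had -1.12 ± 0.10 (adjusted p = 1.2e-08), and USP7, the deubiquitinase that binds DNMT1 and UHRF1, -0.44 ± 0.09 (adjusted p = 0.00029). UHRF2, the paralog of UHRF1, went the other way at 0.95 ± 0.10 (adjusted p = 1.7e-07), from 22.2 to 26.8 CPM in the parental libraries to 46.0 to 52.1 CPM in the labelled ones. HELLS, the remodeller needed for methylation of heterochromatin, was at -0.17 ± 0.08 (adjusted p = 0.079) and CDCA7 at -0.14 ± 0.11 (adjusted p = 0.27). DPPA3, a maternal inhibitor of UHRF1, had no count in any library. Of the partners of the de novo enzymes 4 of 5 tested were lower and none higher (median -0.92), among them NSD1, which makes the H3K36 methylation that DNMT3A reads, at -1.05 ± 0.11 (adjusted p = 1.5e-07). DNMT3L, the catalytically inactive cofactor of the de novo enzymes, was detected in 1 of 12 libraries, at 2 counts. TRDMT1, the tRNA methyltransferase once named DNMT2, was at 0.17 ± 0.17 (adjusted p = 0.37).

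DNMT1 and UHRF1 are transcribed mainly in S phase, so 24 replication genes were set beside them. With vehicle 7 of the 24 were higher and 12 lower in the labelled line, beside 35.1% and 36.2% of all genes (median -0.22, all genes -0.02), with E2F2 at -1.72 ± 0.14 (SE, adjusted p = 5.0e-09) and CDC45, a replicative helicase subunit, at 1.27 ± 0.11 (adjusted p = 1.4e-08). Unlike E2F2, E2F1 had a higher level in the labelled line. Its vehicle levels were 33.2 to 36.2 CPM in the parental libraries and 45.8 to 52.1 CPM in the labelled ones. In the parental line Act D lowered 9 and raised 1 of the 24, beside 11.1% and 7.59% of all genes (median -0.06, all genes 0.02). In the labelled line it lowered 4 and raised 1, beside 8.4% and 3.51%. The calls of GINS2, CCNE1 and CDT1 there were kept under 6, 6 and 9 of 13 alternatives, and all of them were lost without labelled vehicle replicate 1 (log2 fold changes -0.27, 0.33 and -0.30), among other libraries. The part of the cell cycle in the levels of DNMT1 and UHRF1 was not tested.

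Downstream of TET oxidation, genes of active demethylation were split: with vehicle 7 of 14 were higher and 4 lower in the labelled line, beside 35.1% and 36.2% of all genes (median 0.29, all genes -0.02). CXXC4, 1 of the 7, passed the filter on low counts through the labelled libraries alone. TDG, the glycosylase that removes oxidised methylcytosine, was at 0.28 ± 0.13 (log2, SE, adjusted p = 0.061). GADD45B, a stress-induced gene linked to demethylation, was at 2.59 ± 0.11 (adjusted p = 5.3e-13) and GADD45A at 1.71 ± 0.11 (adjusted p = 1.1e-10). LIG3, the ligase of base excision repair, was at -1.43 ± 0.09 (adjusted p = 1.3e-10). Act D raised GADD45A in the parental line from 16.4 to 17.95 CPM to 36.3 to 40.2 CPM, a log2 fold change of 1.14 ± 0.11 (adjusted p = 1.4e-06), while the labelled line held 49.9 to 59.9 CPM with vehicle and 48.8 to 60.9 CPM with Act D. Of 7 genes listed as methyl-CpG readers or their domain relatives, 3 were higher and 2 lower with vehicle, beside the same 35.1% and 36.2%. ZBTB4 led the called genes, at -0.85 ± 0.14 (adjusted p = 2.4e-05). With Act D none was higher and 3 were lower, beside 35.1% and 35.3%, and Act D lowered 2 of the 7 in the parental line (11.1% of all genes) and 4 in the labelled line (8.4%). MBD3, a subunit of the NuRD complex with the same type of domain, was at 0.36 ± 0.13 between the lines with vehicle (adjusted p = 0.0173). With Act D it was at -0.30 ± 0.13 (adjusted p = 0.0458). The first did not pass without replicate 1 of either vehicle group (0.31 and 0.15) or with library size alone (0.12), and the second did not pass without replicate 1 or 2 of either Act D group (-0.34 to -0.27). MAT2A, which makes the methyl donor S-adenosylmethionine, was at -0.71 ± 0.13 (adjusted p = 0.00011), and MAT2B, its regulatory subunit, at -0.54 ± 0.09 (adjusted p = 5.9e-05). AHCY, which clears the product S-adenosylhomocysteine, was at 0.22 ± 0.09 (adjusted p = 0.0458), a call that most alternatives did not keep.

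Finally, genes that DNA methylation is known to silence were read as transcripts. Of 20 germline genes 4 passed the filter on low counts. HORMAD1 passed it through the labelled libraries alone and MAGEB2 through the parental ones, so a count of called genes carries nothing here and single genes are given. MAGEB2, a cancer-testis antigen gene, was at 99.1, 93.5 and 106.6 CPM in the parental vehicle libraries and at 0.402, 0.60 and 0.473 CPM in those labelled uL3Δ, a log2 fold change of -7.60 ± 0.17 (SE, adjusted p = 2.3e-16). PRAME, another such gene, rose by 1.43 ± 0.10 (log2, adjusted p = 4.4e-10). HORMAD1, a meiotic gene, had no count in the parental vehicle libraries and 1.37 to 2.60 CPM in the labelled ones, at least 9.12-fold higher when the parental level is set to a floor of 3 counts per library. Of 9 genes often methylated in colon cancer 5 were tested, HIC1 and CHFR of which passed the filter through the labelled libraries alone, so again no count is drawn. TIMP3, a metalloproteinase inhibitor gene, went from 8.36, 5.37 and 4.35 CPM to 93.5, 94.0 and 95.7 CPM, and HIC1, a transcriptional repressor gene, from 0.207 to 0.423 CPM to 4.95 to 7.02 CPM. CDKN2A and CHFR also had higher levels in the labelled vehicle libraries. SFRP1 did not, at 0.362 to 1.04 CPM in the parental vehicle libraries and 0.300 to 1.04 CPM in the labelled ones. SFRP2, SFRP5, GATA4 and GATA5 reached at most 0.135 CPM in any vehicle library of either line. TIMP3 and CDKN2A overlap other genes in the annotation. The methylation state of these genes was not measured.

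**Figure D4:**
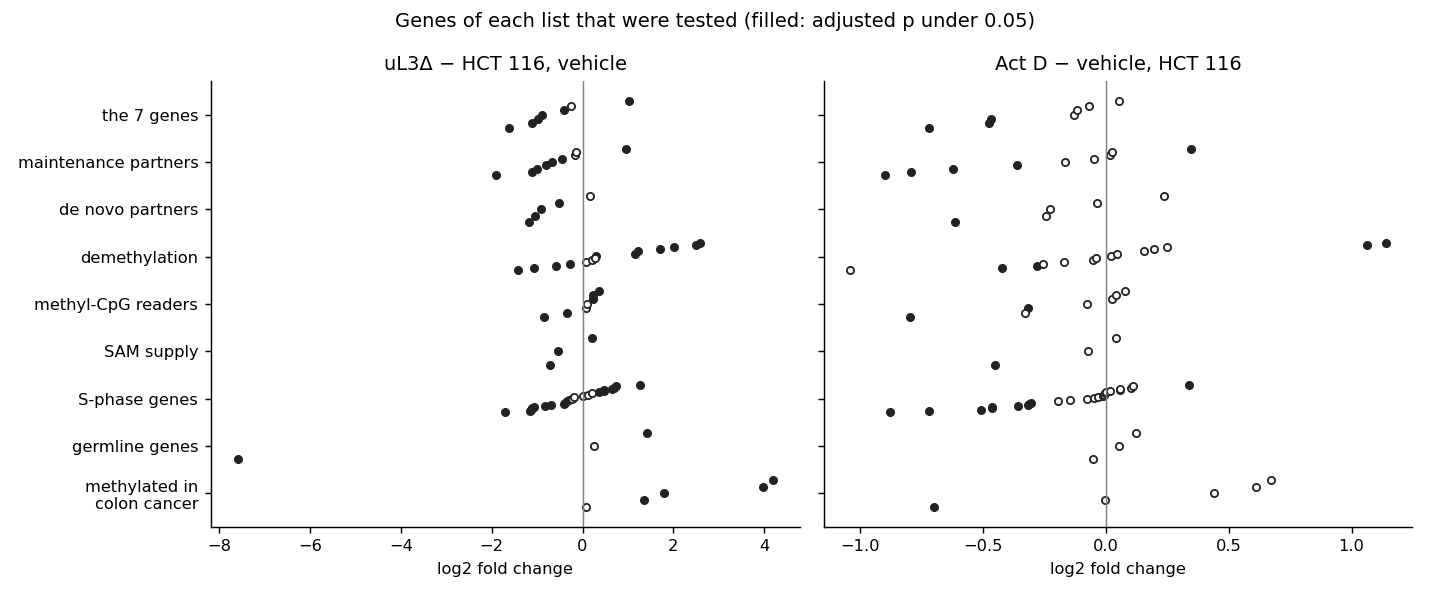
Fitted log2 fold changes (x axis) of the tested genes of each list, for the labelled against the parental line with vehicle (left) and for Act D in the parental line (right); the panels have different x scales, each circle is 1 gene, filled where the adjusted p was under 0.05, and genes with no count in a whole group are left out. Among the maintenance partners 6 of 9 lie left of 0 as called genes on the left, and MAGEB2 is the outlying point at -7.60.

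As a description of shape, the genes most alike each member over the 12 libraries were sought among 10867 tested genes with a mean of at least 5 CPM. DNMT1 was closest to NACC1 (Pearson r of log2 CPM 0.995), UHRF1 to DGCR2 (0.989), DNMT3A to TBC1D4 (0.987), DNMT3B to MROH1 (0.993), TET2 to CAAP1 (0.964) and TET3 to DHX34 (0.990). TET1 was closest to RGPD8, at 0.874. The libraries fall into 2 lines, so a shared difference between the lines can raise these coefficients for the members called between them. TET1 was not called between the lines. What the coefficients reflect was not tested.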

How the data were processed

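Total RNA was sequenced (TruSeq RNA, paired-end) and quantified by the authors with RSEM 1.2.25 on hg38, per the submitters' processing notes. The deposited files hold expected counts per gene, which were rounded to whole numbers and tested; 1 library was deposited per transcript (226788 transcripts) and was summed per gene. The authors' TPM, percent of a gene per isoform and the other deposited columns (lengths, posterior spread) were read, and of these effective lengths and the transcript estimates of that library were used. Of 60617 gene IDs 60261 matched GENCODE 44, which gave symbols and coordinates. TMM factors (0.847 to 1.15) scaled CPM, filterByExpr left 15692 genes, and edgeR 4.0.16 (R 4.3.3) fitted 1 coefficient per group over 12 libraries (quasi-likelihood test, Benjamini-Hochberg over all genes tested, adjusted p under 0.05).

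The members and lists were chosen with earlier results of these data known. The 7 members are named throughout; from each list, genes tied directly to them and at most 3 genes with the smallest p were named, and for each member the 2 most alike genes. CDH1, KRT8, KRT18, COL1A1, COL1A2, COL3A1, LUM and DCN, from the marker lists, were named after their values were seen. The same holds for CXXC4, CHFR, E2F1, SFRP1, SFRP2, SFRP5, GATA4 and GATA5. Alternatives were DESeq2 1.42.0, library size alone, upper-quartile factors, no filter, 1 CPM in at least 3 libraries, the replicate block, only the groups compared, and leaving out each library. On simulated counts with 200 changed genes among 15174, edgeR recovered 154 and called 9 others. The simulation gave every gene the same spread and raised as many genes as it lowered. It therefore does not measure the errors between the lines with vehicle, where 71.3% of all genes tested were called. No replicate pair had identical counts. Labelled Act D replicate 1 stood apart in its group. Its chi-square of counts per degree of freedom was 107.9 against replicate 2 and 62.8 against replicate 3, while replicates 2 and 3 gave 13.0. Its TMM factor was 0.955, against 0.847 and 0.856. Counting error is the only error that a floor of 3 counts covers.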

Additional observations from a re-analysis of the deposited data

Results flagged for a closer look

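For each result here the test of the difference between the Act D responses of the lines (labelled uL3Δ minus parental, log2) passed in edgeR's quasi-likelihood fit, and 6.53% of all genes tested did so. Among the 7 genes these were DNMT3A at 1.00 (adjusted p = 0.00393) and TET3 at -0.58 (adjusted p = 0.0294). DNMT3A kept its call under every alternative run and without each library, and TET3 did not. All of these runs used counts without effective length. Per kilobase, parental DNMT3A overlapped between vehicle (1.23 to 1.81 CPM) and Act D (0.924 to 1.36 CPM). In the labelled line it did not (4.15 to 5.27 and 5.76 to 5.97 CPM). The difference between the responses was not tested on that scale.

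Among the companion genes GADD45A was at -1.20 (adjusted p = 0.000145) and GADD45B at -0.79 (adjusted p = 0.00408), both called without each library in turn. CDCA7 was at 0.67 (adjusted p = 0.0196), and fell to 0.58 to 0.62 (adjusted p = 0.0517 to 0.0703) without parental vehicle replicate 3, parental Act D replicate 3 or labelled Act D replicate 3. CDCA7L was at 0.63 (adjusted p = 0.0159), and at 0.60 and 0.55 (adjusted p = 0.0508 and 0.0636) without parental or labelled Act D replicate 1. LIG3 was at 0.55 (adjusted p = 0.0155), and at 0.52 and 0.50 (adjusted p = 0.051 and 0.053) without parental Act D replicate 2 or labelled Act D replicate 3, and at 0.52 without a filter (adjusted p = 0.052). MBD3, a methyl-CpG-binding domain protein of the NuRD complex, was at -0.66 (adjusted p = 0.036), which did not pass without any 1 of the 3 parental vehicle libraries, parental Act D replicate 1 or 2, or labelled Act D replicate 1 or 2 (-0.70 to -0.61, adjusted p = 0.0535 to 0.094) or with library size alone (-0.67, adjusted p = 0.0715).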

How the results depend on the processing

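The number of the 7 genes called in each comparison of the lines and in each Act D response stayed within 1.5 times under every alternative run. For the difference between the Act D responses it fell from 2 to 1 with library size alone and with the replicate block, and ranged from 1 to 2 when each library was left out, since TET3 no longer passed (adjusted p = 0.0569, 0.0592 and 0.0514 to 0.0686). The replicate numbers do not pair the samples (correlations of same-number deviations -0.104 to 0.101 over 18 pairs). TET2 between the lines with Act D did not pass with DESeq2 (adjusted p = 0.0588), without a filter (0.0736) or with the replicate block (0.0658). TET1 between the lines with vehicle passed with library size alone (-0.49, adjusted p = 0.028), where the median of all genes shifted to -0.26.

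Values near 0 changed sign. With library size alone TET1 under Act D in the parental line was -0.048, TET2 under Act D in the labelled line was -0.080 (-0.023 without a filter), AHCY between the lines was -0.022 and TRDMT1 was -0.070; DNMT1 in the difference of the responses was 0.018 with upper-quartile factors. Leaving out 1 library at a time gave TET1 under Act D -0.086 to 0.13 in the parental and -0.10 to 0.23 in the labelled line, TET2 in the labelled line -0.080 to 0.097, and in the difference of the responses DNMT1 -0.082 to 0.083 and TET1 -0.15 to 0.19. HELLS passed with library size alone (-0.41) and upper-quartile factors (-0.20), CDCA7 with library size alone (-0.39), and TDG without a filter and with only the groups compared (0.28); without labelled vehicle replicate 3, HELLS (-0.22, adjusted p = 0.0488) and TDG (0.34, adjusted p = 0.0424) passed. AHCY between the lines with vehicle did not pass with library size alone, upper-quartile factors, no filter, the replicate block or only the groups compared (adjusted p = 0.0525 to 0.866), nor without parental vehicle replicate 1 or 3 or labelled vehicle replicate 2 (0.14 to 0.23). The causes were not tested. TET1 rests on 47 to 154 counts a library and parental DNMT3A on 75 to 188.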
